A study of Mus musculus with 9 samples.

Results

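Genes of glycolysis and of the response to low oxygen were followed in mouse back skin treated with imiquimod, with and without mechanical stretch. The set was a list of 42 gene names, matched by symbol to the array rows and taken as 1 row per symbol. Of these names 39 had a row, out of 19505 genes measured; Ero1l, an older name of Ero1a, and the glycolytic genes Gpi1 and Eno1 had no row under those names. Each of the 39 genes had a single row on the array, so no choice between rows was needed.

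All samples were skin of C57BL/6J mice aged 8 weeks that received 5% imiquimod cream daily for 7 days. Imiquimod is a Toll-like receptor agonist that induces psoriasis-like dermatitis in mice. In the stretch group (5 arrays) a plastic device glued to the back after hair removal was lengthened by 10 mm on the first day, and the no-stretch group (4 arrays) had the cream without stretch. The protocol is worded identically for all samples and leaves unsaid whether non-stretched skin carried the glued device, so it is not known whether the comparison also holds an effect of the device. The comparison asks which genes differ when inflamed skin is also stretched. Whether every array stands for its own mouse is not stated, so the p-values rest on the spread among these 9 samples, some of which may be technical.

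Glycolysis turns glucose into pyruvate in the cytosol, and lactate dehydrogenase and lactate export let it run quickly when oxygen is short or demand is high. Many of its steps have a constitutive or muscle isoform and an isoform that is induced by growth signals, inflammation or low oxygen. Hypoxia-inducible factor (HIF) is a transcription factor whose alpha subunit is marked for destruction by oxygen-dependent prolyl hydroxylases; when it accumulates it binds short motifs with the core ACGTG or GCGTG and raises glucose transporters, glycolytic enzymes and genes of mitophagy, acid export and vessel tone. In skin, keratinocytes rely heavily on glycolysis, and neutrophils and activated macrophages do so as well.

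Promoter sequences are shown for the 4 genes of the set with the smallest p-values in the comparison (Ero1a, Bnip3, Slc16a3 and Slc2a1) and for Adm, which had the largest difference. Pgam2, the muscle phosphoglycerate mutase, is added because it was lower in every stretched array. Each is the 250 bases before an annotated start in GRCm38.p6, from RefSeq, written 5′ to 3′ in the direction of the gene. Capitals mark ACGTG or GCGTG on either strand (read as CACGT or CACGC on the other), the letters of the HIF core motif. The windows are chr14:45318573-45318822 on the minus strand for Ero1a, chr7:138909507-138909756 on the minus strand for Bnip3, chr11:120948817-120949066 on the plus strand for Slc16a3, chr4:119108495-119108744 on the plus strand for Slc2a1, chr7:110627407-110627656 on the plus strand for Adm and chr11:5803797-5804046 on the minus strand for Pgam2.
Ero1a: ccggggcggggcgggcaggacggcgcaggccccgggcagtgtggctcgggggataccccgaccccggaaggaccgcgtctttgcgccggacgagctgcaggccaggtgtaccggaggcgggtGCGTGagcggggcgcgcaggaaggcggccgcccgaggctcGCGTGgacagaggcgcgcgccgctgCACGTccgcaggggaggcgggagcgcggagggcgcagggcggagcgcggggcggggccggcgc
Bnip3: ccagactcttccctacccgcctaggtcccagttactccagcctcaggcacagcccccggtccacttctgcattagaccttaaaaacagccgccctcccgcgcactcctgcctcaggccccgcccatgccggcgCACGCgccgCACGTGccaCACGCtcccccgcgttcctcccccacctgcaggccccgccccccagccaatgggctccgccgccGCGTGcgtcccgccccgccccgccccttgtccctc
Slc16a3: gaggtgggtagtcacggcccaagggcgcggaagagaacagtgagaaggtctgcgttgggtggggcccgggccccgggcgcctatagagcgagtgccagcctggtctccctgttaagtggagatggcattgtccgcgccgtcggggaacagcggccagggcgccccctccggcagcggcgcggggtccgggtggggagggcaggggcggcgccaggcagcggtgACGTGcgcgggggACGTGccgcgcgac
Slc2a1: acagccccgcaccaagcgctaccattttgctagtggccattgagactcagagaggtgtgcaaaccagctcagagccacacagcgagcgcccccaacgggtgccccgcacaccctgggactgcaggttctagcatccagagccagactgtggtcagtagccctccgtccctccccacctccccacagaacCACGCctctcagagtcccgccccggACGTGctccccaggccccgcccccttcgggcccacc
Adm: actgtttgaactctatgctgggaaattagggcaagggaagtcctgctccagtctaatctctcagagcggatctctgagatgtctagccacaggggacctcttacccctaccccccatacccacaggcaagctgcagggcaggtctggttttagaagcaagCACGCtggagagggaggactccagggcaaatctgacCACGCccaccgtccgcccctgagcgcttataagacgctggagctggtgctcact
Pgam2: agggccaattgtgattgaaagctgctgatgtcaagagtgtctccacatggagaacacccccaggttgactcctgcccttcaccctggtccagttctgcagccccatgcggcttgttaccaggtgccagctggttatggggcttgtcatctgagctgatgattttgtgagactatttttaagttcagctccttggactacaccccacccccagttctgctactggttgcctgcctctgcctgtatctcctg

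Ero1a had 3 such matches, Bnip3 5, and Slc16a3, Slc2a1 and Adm 2 each, while the Pgam2 window held none. Pgam2 does not stand for the lower genes in this. The windows of Eno3 and Ldhb held 1 match each and those of Pfkm 2, 2, 1 and 0. The window of Tpi1, which was higher at an unadjusted limma p under 0.05, held 0. In Bnip3 the letters CACGTG count on both strands and are also the E-box, the motif of other transcription factors. Across the set, 35 of the 39 genes had at least 1 window, and 40 of their 50 windows (80%) held a match, against 38.6% of all 32851 promoter windows of the same length. The windows of the set were also richer in G and C, with a median of 60.4% against 52.4%. Some windows of the same gene overlap, as for Aldoa, Pfkm and Kdm3a, so windows are not independent. The list holds HIF target genes by choice, so its share of matches says nothing about stretch. Among the 15 windows of members that were higher with an unadjusted p under 0.05, 13 held a match, and among the 35 windows of the other members 27 did. A match is a description of letters and not evidence of a binding site.

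Stretched skin had higher values for the glucose and lactate transporters, hexokinase 2 and several HIF target genes, and lower values for Ldhb and the muscle isoforms Pgam2, Pfkm and Eno3, but no gene of the set passed the test over all genes. The largest difference was that of Adm, at 2.36 on the log2 scale, and Slc16a3, Ndrg1, Slc2a3 and Slc2a1 followed with 1.21, 1.17, 1.02 and 0.95. Ldhb, Pgam2, Pfkm and Eno3 were lower, with -0.97, -0.78, -0.71 and -0.61. Without stretch replicate 1, the array with the lowest mean of skeletal muscle markers, Pgam2, Pfkm and Eno3 differed by -0.39, -0.21 and -0.19. The constitutive isoforms Hk1 and Pfkl differed by -0.09 and 0.36. All differences are stretch minus no stretch on the log2 scale, and folds are 2 to the power of that difference. In whole skin, more cells of a type and more RNA per cell cannot be told apart.

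Each gene was tested with limma, and p-values were adjusted by Benjamini-Hochberg across 19505 genes, with a threshold of 0.05. By this test 0 of the 39 genes were called, against 0.246% of all genes (48 genes), and the smallest limma adjusted p in the set was 0.17, for Ero1a. At an unadjusted limma p under 0.05, 16 of the 39 (41%) were higher, against 6.92% of all genes, and 1 (Ldhb) was lower, against 6.07%. A positive difference was seen for 29 of 39, against 49.6% of all genes, and the median difference was 0.31, against -0.0034 for all genes. All 5 stretched arrays lay above all 4 others for 3 genes of the set (Slc2a1, Bnip3 and Bnip3l), against 2.38% of all genes, and below them for 1 (Pgam2), against 2.15%.

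**Figure D1:**
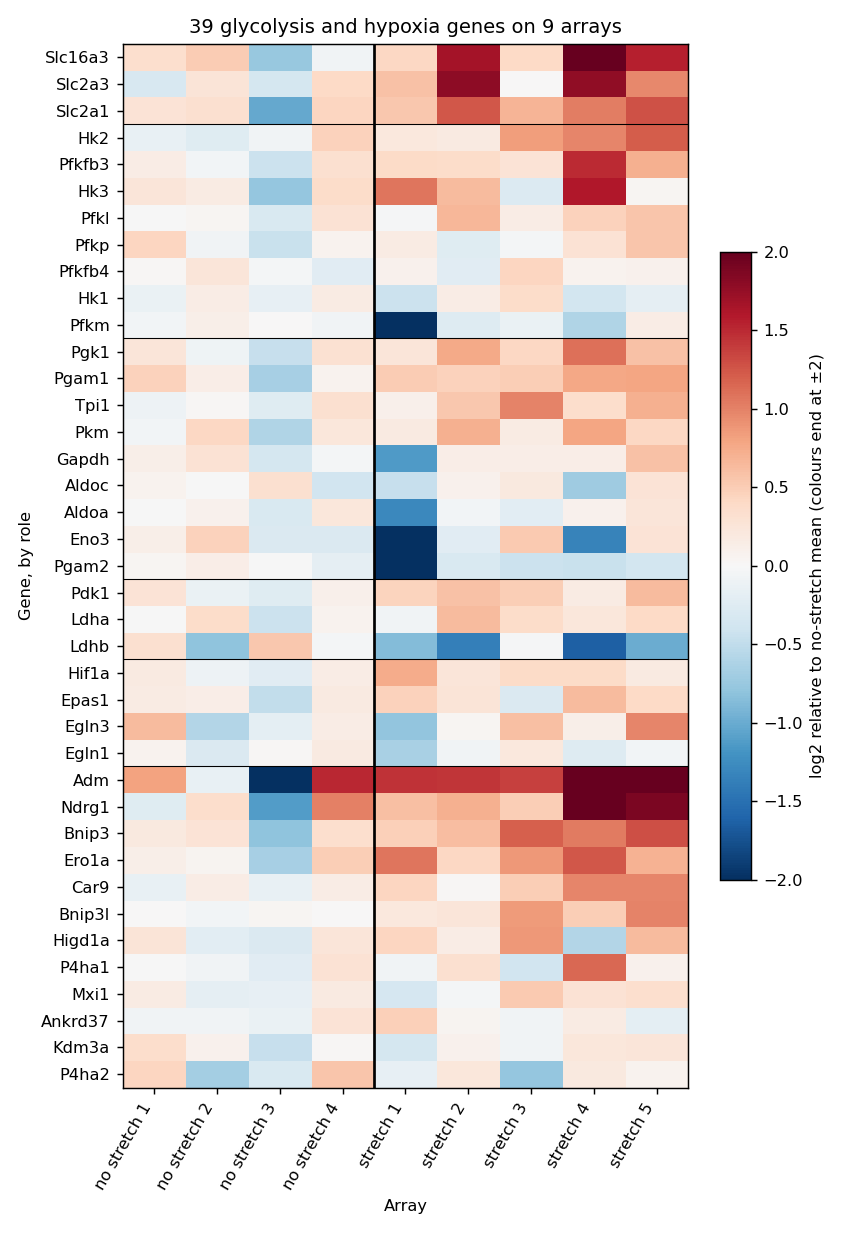
Value of each of the 39 genes (rows, grouped by role) on each of the 9 arrays (columns), as log2 difference from the mean of the no-stretch arrays; the colour scale ends at ±2. The transporters, Adm, Ndrg1, Bnip3, Ero1a, Car9 and Bnip3l are red in most stretched arrays, no-stretch replicate 3 is blue for most of these, and stretch replicate 1 is dark blue for Pfkm, Pgam2 and Eno3.

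**Figure D2:**
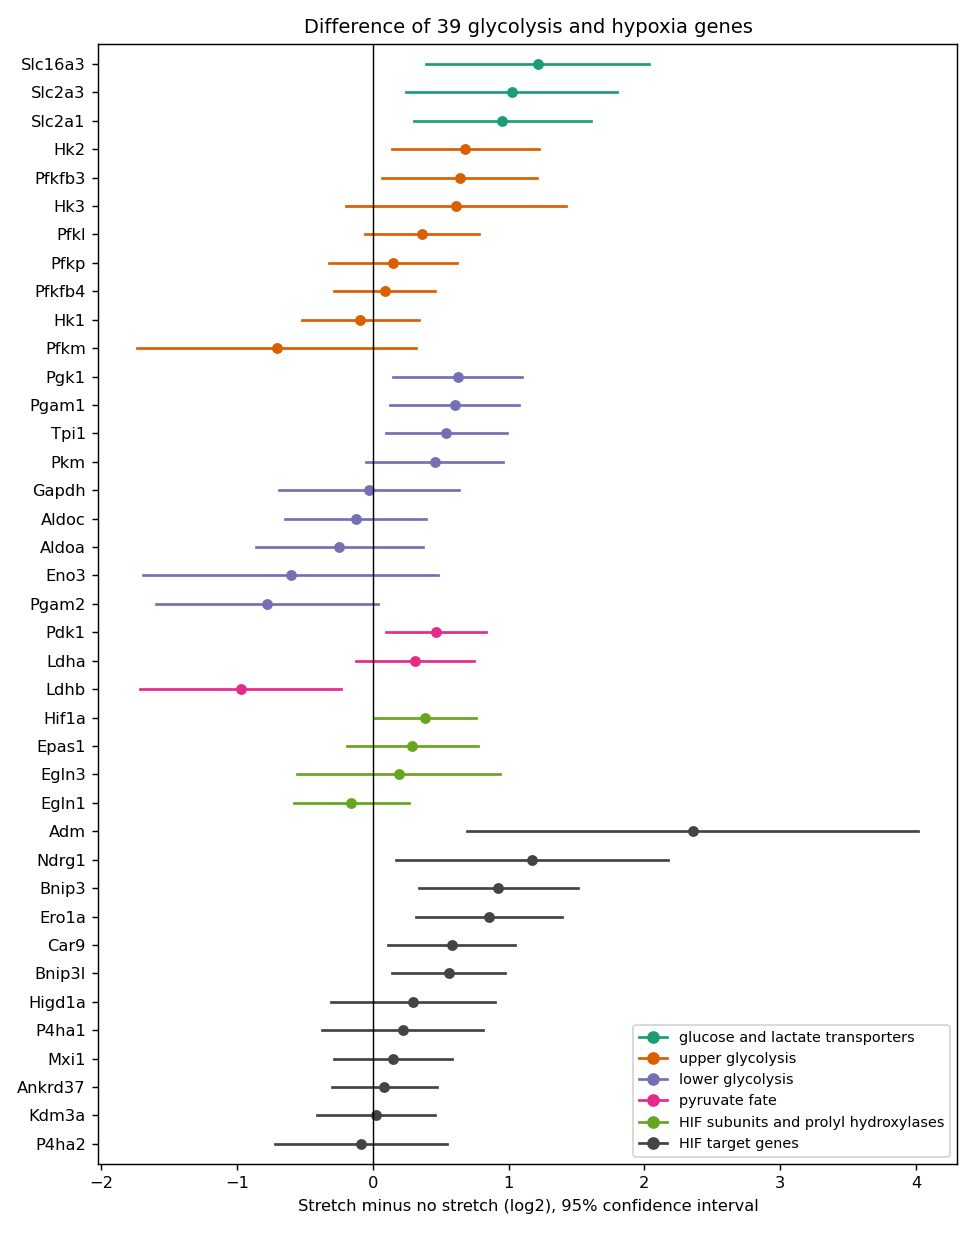
Difference of each gene, stretch minus no stretch on the log2 scale (points), with its 95% confidence interval from limma (lines), coloured by role. Intervals lie above 0 for 16 genes, below 0 for Ldhb, and cross 0 for the other 22.

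Across the set 2 arrays stood apart, and they are also the 2 with the lowest array weights (0.58 for no-stretch replicate 3 and 0.55 for stretch replicate 1, against 0.76 to 1.58 for the other 7). No-stretch replicate 3 had the lowest value of all 9 arrays for 20 of the 39 genes, and for 13 of the 16 that were higher at an unadjusted p under 0.05; it was lowest for 16.8% of all genes. Stretch replicate 1 was lowest for 9 of the 39, against 15.6% of all genes, among them all 3 muscle isoforms. Without no-stretch replicate 3, 9 of the 39 (23.1%) were higher at an unadjusted limma p under 0.05, against 4.67% of all genes, and without stretch replicate 1 the count was 16, against 7.16%. Without both, a choice made after seeing the data, it was 12 (30.8%), against 5.17%. At the limma adjusted threshold the count was 0 in each of these fits. Krt5, Krt14, Krt1, Krt10 and Col1a1, which mark keratinocytes and dermal fibroblasts, lay at or above percentile 99.1 of all genes on arrays labelled as skin.

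The transporters were the role in which every member was higher. Slc2a1 encodes GLUT1, the main glucose carrier of keratinocytes. Its log2 values were 15.76, 16.46, 15.90, 16.24 and 16.48 in stretch replicates 1 to 5 and 15.50, 15.53, 14.19 and 15.65 in no-stretch replicates 1 to 4. All stretched arrays were above all others, the lowest of them by a small margin over 3 of the no-stretch arrays and by a wide one over no-stretch replicate 3. The means were 16.17 ± 0.33 (SD, n = 5) against 15.21 ± 0.69 (SD, n = 4), a 1.93-fold difference (log2 difference 0.95, 95% confidence interval 0.30 to 1.60, limma adjusted p = 0.21). Leaving out no-stretch replicate 3 gave a difference of 0.61.

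Slc16a3 encodes MCT4, the carrier that exports lactate from highly glycolytic cells. Stretched arrays gave 10.59, 11.84, 10.58, 12.20 and 11.73 and the others 10.50, 10.68, 9.41 and 10.11. Stretch replicates 2, 4 and 5 were high, whereas replicates 1 and 3 lay level with no-stretch replicates 1 and 2, so the groups overlapped (2.32-fold, 95% confidence interval of the log2 difference 0.39 to 2.04, limma adjusted p = 0.21). Slc2a3 encodes GLUT3, a glucose carrier of leukocytes and neurons. It read 4.65, 5.84, 4.07, 5.83 and 5.02 with stretch and 3.75, 4.32, 3.70 and 4.47 without, low values at percentile 35.7 of all genes. Again stretch replicates 2 and 4 were highest and replicate 3 was within the no-stretch range (log2 difference 1.02, 95% confidence interval 0.24 to 1.80, limma adjusted p = 0.25).

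Neutrophil markers had positive differences as well. This was so for all 11 measured markers, of which 0 passed limma's test over all genes and 8 had an unadjusted p under 0.05 (6.92% of all genes did in this direction), and their mean relative to the no-stretch mean was 1.90, 2.53, 1.05, 2.97 and 1.47 in stretch replicates 1 to 5 and -0.77 to 0.52 without stretch. Replicates 4 and 2 had the highest marker means of the stretched arrays and replicate 3 the lowest, as for Slc2a3 and Slc16a3, although Slc16a3 was level in replicates 1 and 3. Slc2a1 had another order, highest in replicates 5 and 2 and lowest in replicate 1. All 9 measured monocyte and macrophage markers were higher too, with means of -0.11 to 1.60 with stretch and -0.65 to 0.69 without. The part of these cells in the transporter differences was not tested.

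**Figure D3:**
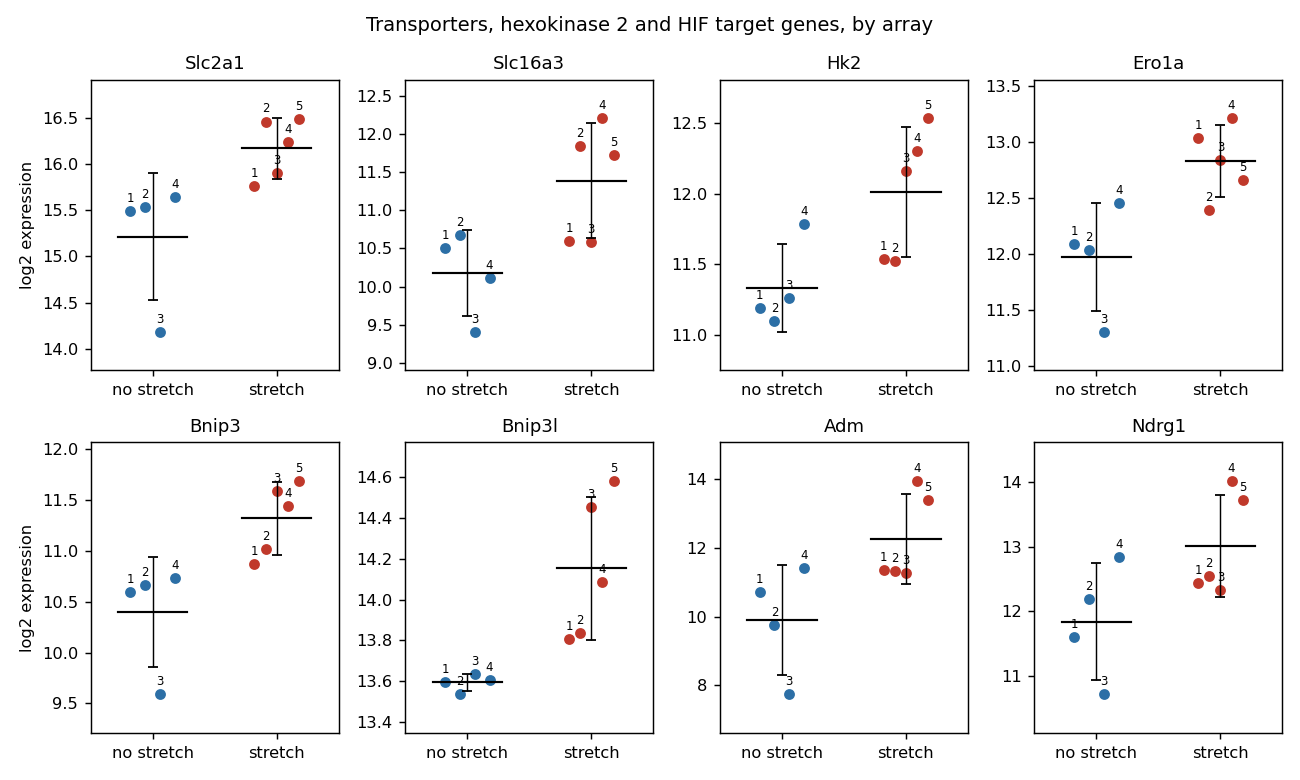
Log2 expression of 8 genes on each array, no stretch in blue and stretch in red; numbers are replicate numbers, the horizontal line is the group mean and the bar 1 SD. Groups are separate for Slc2a1, Bnip3 and Bnip3l and overlap for the others, and no-stretch replicate 3 is the lowest point in all panels except Hk2 and Bnip3l.

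In upper glycolysis 6 of 8 measured genes had a positive difference, and both with an unadjusted p under 0.05 belong to inducible isoforms. Hk2, the inducible hexokinase that commits glucose to the cell, was at 11.54, 11.52, 12.16, 12.31 and 12.54 with stretch and 11.19, 11.10, 11.26 and 11.79 without. Stretch replicates 3, 4 and 5 were above every other array, while replicates 1 and 2 lay below no-stretch replicate 4 (1.6-fold, 95% confidence interval of the log2 difference 0.14 to 1.22, limma adjusted p = 0.27). Pfkfb3, the inducible enzyme that makes the allosteric activator of phosphofructokinase, was at 11.37, 11.35, 11.26, 12.48 and 11.69 with stretch and 11.14, 10.94, 10.57 and 11.32 without. Replicate 4 was the high array, and 4 of 5 stretched arrays were above all others (log2 difference 0.64, limma adjusted p = 0.33).

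Hk1, the constitutive hexokinase, differed little: 12.06, 12.63, 12.85, 12.12 and 12.31 with stretch and 12.35, 12.63, 12.32 and 12.65 without, a log2 difference of -0.09 (95% confidence interval -0.52 to 0.34). Hk3, the hexokinase of myeloid cells, read 8.96, 8.52, 7.61, 9.49 and 7.93 with stretch and 8.12, 8.06, 7.12 and 8.25 without. It was highest in stretch replicates 4 and 1, the arrays with the highest macrophage marker means (1.60 and 1.45), and the groups overlapped (log2 difference 0.61, limma adjusted p = 0.52).

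The phosphofructokinase subunits differed in sign. Pfkl, the liver-type subunit, had a log2 difference of 0.36 (95% confidence interval -0.06 to 0.78). Pfkp, the platelet-type subunit, was at 12.01, 11.61, 11.80, 12.13 and 12.39 with stretch and 12.27, 11.78, 11.40 and 11.91 without, fully interleaved (0.15). Pfkm, the muscle subunit, read 10.49, 12.92, 13.06, 12.59 and 13.33 with stretch and 13.12, 13.31, 13.19 and 13.12 without. Stretch replicate 1 was more than 2 log2 units below every other array, replicates 2, 3 and 4 lay just below the tight no-stretch range, and replicate 5 just above it. The difference of Pfkm was -0.71 (95% confidence interval -1.73 to 0.32, limma adjusted p = 0.56), and -0.21 without stretch replicate 1. Pfkfb4, a second bifunctional regulator of the step, differed by 0.09.

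Lower glycolysis split by gene. Pgk1, the first ATP-yielding enzyme, was at 14.06, 14.57, 14.23, 14.91 and 14.40 with stretch and 14.05, 13.72, 13.36 and 14.11 without, and 4 of 5 stretched arrays were above all others (1.54-fold, 95% confidence interval of the log2 difference 0.15 to 1.10, limma adjusted p = 0.25). Tpi1, triose phosphate isomerase, gave 14.55, 14.99, 15.43, 14.79 and 15.16 and 14.34, 14.47, 14.20 and 14.75, with only stretch replicate 1 inside the no-stretch range (log2 difference 0.54, limma adjusted p = 0.29). Pgam1, the non-muscle phosphoglycerate mutase, read 9.95, 9.91, 9.95, 10.22 and 10.24 with stretch and 9.91, 9.58, 8.79 and 9.52 without. Its stretched values were tight and its no-stretch values wide, with replicate 3 lowest and replicate 1 level with the lowest stretched array. Its difference was 0.60 (limma adjusted p = 0.26), and 0.38 without no-stretch replicate 3. Pkm, pyruvate kinase, differed by 0.45 (95% confidence interval -0.05 to 0.96) with overlap.

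The muscle-type enzymes of the same steps had negative differences, none of which passed. Pgam2, the muscle phosphoglycerate mutase, was at 7.57, 9.61, 9.49, 9.48 and 9.55 with stretch and 9.96, 10.06, 9.92 and 9.74 without. Every stretched array was below every other one, with 4 stretched arrays close beneath the no-stretch range and replicate 1 far beneath it. The means were 9.14 ± 0.88 (SD, n = 5) against 9.92 ± 0.13 (SD, n = 4), a difference of -0.78 (95% confidence interval -1.60 to 0.04, limma adjusted p = 0.41), and -0.39 without stretch replicate 1. Eno3, the muscle enolase, read 9.89, 11.93, 12.69, 10.83 and 12.44 with stretch and 12.28, 12.62, 11.87 and 11.87 without. Stretch replicates 1 and 4 were low and the other 3 within or above the no-stretch range (-0.61, limma adjusted p = 0.64), and the difference was -0.19 without replicate 1. Eno1b, a copy of the alpha enolase gene that is not in the list and was chosen after its values were seen, differed by 0.29 (95% confidence interval -0.07 to 0.66).

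Aldoa and Gapdh, among the brightest genes on the array and abundant in muscle as well as in skin, differed by -0.25 and -0.03. Gapdh, often taken as a reference gene, was at 16.92, 18.18, 18.20, 18.20 and 18.65 with stretch and 18.18, 18.34, 17.70 and 18.02 without, and Aldoa at 16.84, 18.06, 17.91, 18.20 and 18.36 with stretch and 18.11, 18.21, 17.81 and 18.35 without. In both, stretch replicate 1 alone was low, and the other 8 arrays of the groups overlapped. Without it the differences were 0.25 for Gapdh and 0.013 for Aldoa, and that of Gapdh was also positive after median centring of the arrays (0.039). Aldoc, the aldolase isoform best known from brain, differed by -0.13. Gapdh has many processed copies in the mouse genome, and whether its probes also read these was not tested.

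Stretch replicate 1 was also the array with the least skeletal muscle signal. The mean of 17 skeletal muscle markers relative to the no-stretch mean was -1.31 there, against -0.098 to 0.83 in the other stretched arrays and -0.30 to 0.39 without stretch, and 12 of the 17 had their lowest value on it. Between the groups 7 of the 17 had a positive difference, with a median of -0.033. Ckm, muscle creatine kinase, differed by -0.81 and Ampd1, the AMP deaminase of muscle, by 1.24 (limma adjusted p = 0.38 and 0.18). The part of muscle content in the low values of Pfkm, Pgam2 and Eno3 was not tested beyond the values without that array.

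**Figure D4:**
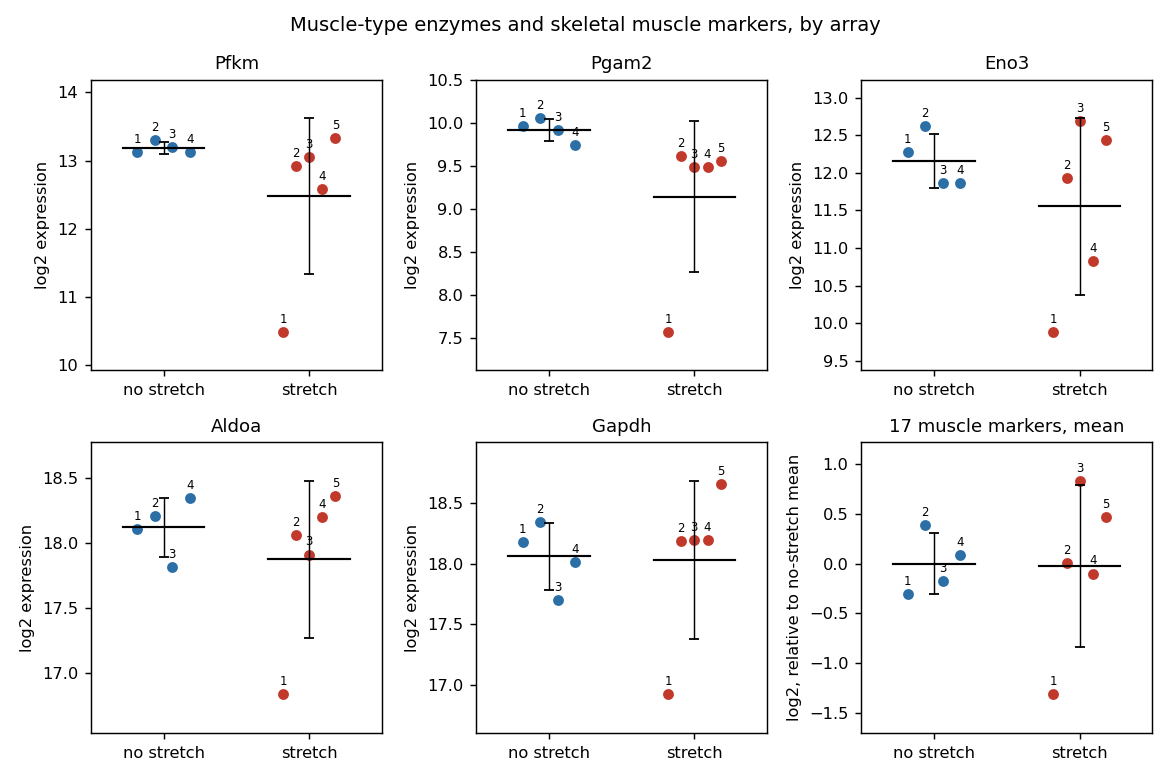
Log2 expression of Pfkm, Pgam2, Eno3, Aldoa and Gapdh on each array, and the mean of 17 skeletal muscle markers relative to the no-stretch mean; points carry replicate numbers, lines are group means and bars 1 SD. Stretch replicate 1 is the lowest point in all 6 panels.

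At the fate of pyruvate, Ldhb carried the only negative difference with an unadjusted p under 0.05. Ldha and Ldhb encode the lactate dehydrogenase subunits that favour lactate formation and lactate use. Ldhb was at 6.29, 5.79, 7.12, 5.52 and 6.17 with stretch and 7.47, 6.35, 7.70 and 7.11 without. Stretch replicate 3 was above no-stretch replicates 2 and 4, and the other 4 stretched arrays were below every no-stretch array (1.96-fold lower, 95% confidence interval of the log2 difference -1.72 to -0.23, limma adjusted p = 0.25). Ldha gave 16.18, 16.88, 16.61, 16.47 and 16.64 with stretch and 16.24, 16.61, 15.82 and 16.31 without, a difference of 0.31 (95% confidence interval -0.12 to 0.75) with overlap. Pdk1, the kinase that shuts off pyruvate dehydrogenase, was at 10.60, 10.75, 10.65, 10.32 and 10.80 with stretch and 10.43, 10.02, 9.91 and 10.26 without, with only stretch replicate 4 inside the no-stretch range (1.38-fold, limma adjusted p = 0.27).

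Among the oxygen sensors, Hif1a had a small positive difference and its hydroxylases none that stood out. Hif1a, the oxygen-regulated alpha subunit, was at 17.31, 16.82, 16.97, 16.96 and 16.75 with stretch and 16.76, 16.47, 16.35 and 16.72 without, 4 of 5 stretched arrays being above all others. The difference was 0.39 (95% confidence interval 0.02 to 0.76, limma adjusted p = 0.36), and 0.30 without stretch replicate 1, the highest array. HIF is controlled largely at the protein level, which arrays do not measure.

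Epas1, which encodes the second alpha subunit, prominent in endothelium, read 10.30, 10.10, 9.55, 10.47 and 10.23 with stretch and 10.00, 9.98, 9.35 and 10.02 without (0.29, limma adjusted p = 0.61). It was above the no-stretch arrays in every stretched array except replicate 3. Egln3, a prolyl hydroxylase that HIF itself induces, was at 15.12, 15.95, 16.51, 16.02 and 16.88 with stretch and 16.54, 15.32, 15.70 and 16.05 without, interleaved, a difference of 0.19 (95% confidence interval -0.56 to 0.94). Egln1, the main hydroxylase, was at 13.43, 14.01, 14.29, 13.82 and 14.02 with stretch and 14.15, 13.79, 14.10 and 14.26 without, a difference of -0.16 (95% confidence interval -0.58 to 0.26).

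Of 12 measured HIF target genes 11 had a positive difference, and 6 of them an unadjusted p under 0.05, against 49.6% and 6.92% of all genes. Without no-stretch replicate 3 these counts were 10 and 5. Ero1a, the oxidase that drives disulfide formation in the endoplasmic reticulum, had the smallest p-value of the set. It was at 13.03, 12.39, 12.84, 13.21 and 12.66 with stretch and 12.09, 12.03, 11.30 and 12.46 without, and only stretch replicate 2 fell below the highest no-stretch array. The means were 12.83 ± 0.32 (SD, n = 5) against 11.97 ± 0.48 (SD, n = 4), a 1.81-fold difference (95% confidence interval of the log2 difference 0.32 to 1.39, limma adjusted p = 0.17).

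Bnip3 and Bnip3l encode related outer-membrane receptors that mark mitochondria for mitophagy, and both separated the groups on every array. Bnip3 read 10.87, 11.02, 11.59, 11.44 and 11.69 with stretch and 10.60, 10.67, 9.59 and 10.74 without, the lowest stretched array being close to the highest no-stretch one and no-stretch replicate 3 far below. Its difference was 0.92 (95% confidence interval 0.34 to 1.51, limma adjusted p = 0.18), and 0.65 without that array. Bnip3l read 13.81, 13.84, 14.45, 14.09 and 14.58 with stretch and 13.60, 13.54, 13.64 and 13.61 without. The no-stretch arrays were nearly equal (SD 0.043) and the stretched ones spread above them, highest in replicates 5 and 3 (0.56, 95% confidence interval 0.14 to 0.97, limma adjusted p = 0.24). Here no-stretch replicate 3 was the highest of its group.

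Adm encodes adrenomedullin, a vasodilator peptide, and Ndrg1 a stress protein of differentiating epithelia. Adm was at 11.34, 11.33, 11.27, 13.95 and 13.40 with stretch and 10.71, 9.76, 7.73 and 11.40 without. Stretch replicates 4 and 5 were far above all others, replicates 1 to 3 lay just below no-stretch replicate 4, and no-stretch replicate 3 was far below. The difference was 5.12-fold (95% confidence interval of the log2 difference 0.69 to 4.02, limma adjusted p = 0.22), and without no-stretch replicate 3 the log2 difference went from 2.36 to 1.63. Ndrg1 had the same pattern, at 12.43, 12.55, 12.33, 14.02 and 13.72 with stretch and 11.60, 12.20, 10.72 and 12.84 without (1.17, limma adjusted p = 0.31), and 0.80 without that array.

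Car9, a membrane carbonic anhydrase that exports acid, gave 5.17, 4.77, 5.24, 5.72 and 5.72 with stretch and 4.60, 4.90, 4.61 and 4.89 without. These are low values (percentile 40.6 of all genes), 4 of 5 stretched arrays being above all others (0.58, limma adjusted p = 0.28). Since detection calls were not used here, whether Car9 and Slc2a3 lay above background was not assessed.

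The other 6 HIF target genes had small differences. Higd1a, a mitochondrial protein, differed by 0.30, Mxi1, an antagonist of MYC, by 0.15, and Ankrd37, an ankyrin-repeat protein, by 0.08. P4ha1 and P4ha2, alpha subunits of the collagen prolyl hydroxylase, differed by 0.22 and -0.09, and the histone demethylase gene Kdm3a by 0.02. All 6 had limma adjusted p-values of at least 0.69, with 95% confidence intervals such as -0.72 to 0.55 for P4ha2 and -0.31 to 0.90 for Higd1a. Fibroblasts are a main site of collagen hydroxylation, and their markers were lower in 6 of 6 (median -0.85), with means of -1.22 to -0.69 with stretch and -0.15 to 0.17 without. Dpt, a dermal matrix protein, was the 1 of them that fell by limma's test (-2.30, adjusted p = 0.025), against 0.246% of all genes called in either direction. It no longer passed without stretch replicate 2 or without no-stretch replicate 1, 2 or 3 (limma adjusted p = 0.075 to 0.091, log2 differences -2.35 to -2.22). The part of fibroblasts in the values of P4ha1 and P4ha2 was not tested.

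The medians of the inducible and of the constitutive or muscle isoforms had opposite signs. Of 11 measured inducible isoforms 10 had a positive difference, with a median of 0.60. Of 6 constitutive or muscle isoforms 1 (Pfkl) did, with a median of -0.66. In that class the constitutive Hk1 and Pfkl differed by only -0.09 and 0.36. The negative median came from the muscle isoforms Pfkm, Pgam2 and Eno3 (-0.71, -0.78 and -0.61) and from Ldhb (-0.97). The mean of the inducible isoforms relative to the no-stretch mean was 0.25 to 0.76 on stretched arrays and -0.38 to 0.14 on the others. That of the constitutive or muscle isoforms was -1.44, -0.23, 0.075, -0.65 and -0.090 in stretch replicates 1 to 5 and -0.038 to 0.046 without stretch. Without stretch replicate 1 the median of the constitutive or muscle class was -0.20, and without no-stretch replicate 3 that of the inducible class was 0.38. The 5 measured enzymes classed as the main gene of their step (Aldoa, Tpi1, Gapdh, Pgk1 and Pkm) had a median of 0.45. Aldoa was placed there although its isoform Aldoc was counted as inducible.

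Pairs of genes were compared by their log2 difference within each array, of which only the shift between groups is read. Of 6 pairs that could be formed, 1 passed an exact permutation test after Benjamini-Hochberg adjustment over the 6. The pairs were chosen with earlier results of these data known, so that p-value is not independent evidence. Pgam1 minus Pgam2 was 1.38 higher with stretch: 2.38, 0.30, 0.46, 0.74 and 0.68 in stretch replicates 1 to 5 and -0.050, -0.47, -1.13 and -0.23 in the others. The groups were fully separate, and stretch replicate 1 was far above the other stretched arrays (exact permutation p = 0.0079, two-sided, the smallest that 126 splits allow, adjusted p = 0.048). The plan was to adjust over 7 pairs, of which 6 could be formed. Over 7 pairs a pair that alone has this p-value would not pass, so the pass depends on the missing pair. Without stretch replicate 1 the shift was 1.02 and the adjusted exact permutation p 0.17, but with 4 arrays against 4 the smallest p before adjustment is 0.029, so a pair that alone is extreme cannot pass there.

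Hk2 minus Hk1 was 0.77 higher with stretch, with values of -1.11 to 0.22 in stretched arrays and -1.53 to -0.86 in the others (exact permutation p = 0.056, adjusted 0.11). Ldha minus Ldhb was 1.29 higher, at 9.48 to 11.09 against 8.12 to 10.26 (exact permutation p = 0.056, adjusted 0.11). In both pairs the groups overlapped. Pfkp minus Pfkm was 0.85 higher (exact permutation p = 0.20, adjusted 0.30), and 0.35 without stretch replicate 1. The shift of Egln3 minus Egln1 was 0.35 (exact permutation p = 0.27, adjusted 0.32). That of Hif1a minus Epas1 was 0.095 (exact permutation p = 0.68, adjusted 0.68), and turned to -0.051 without stretch replicate 3. The pair of Eno1 and Eno3 could not be formed, since Eno1 had no row.

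**Figure D5:**
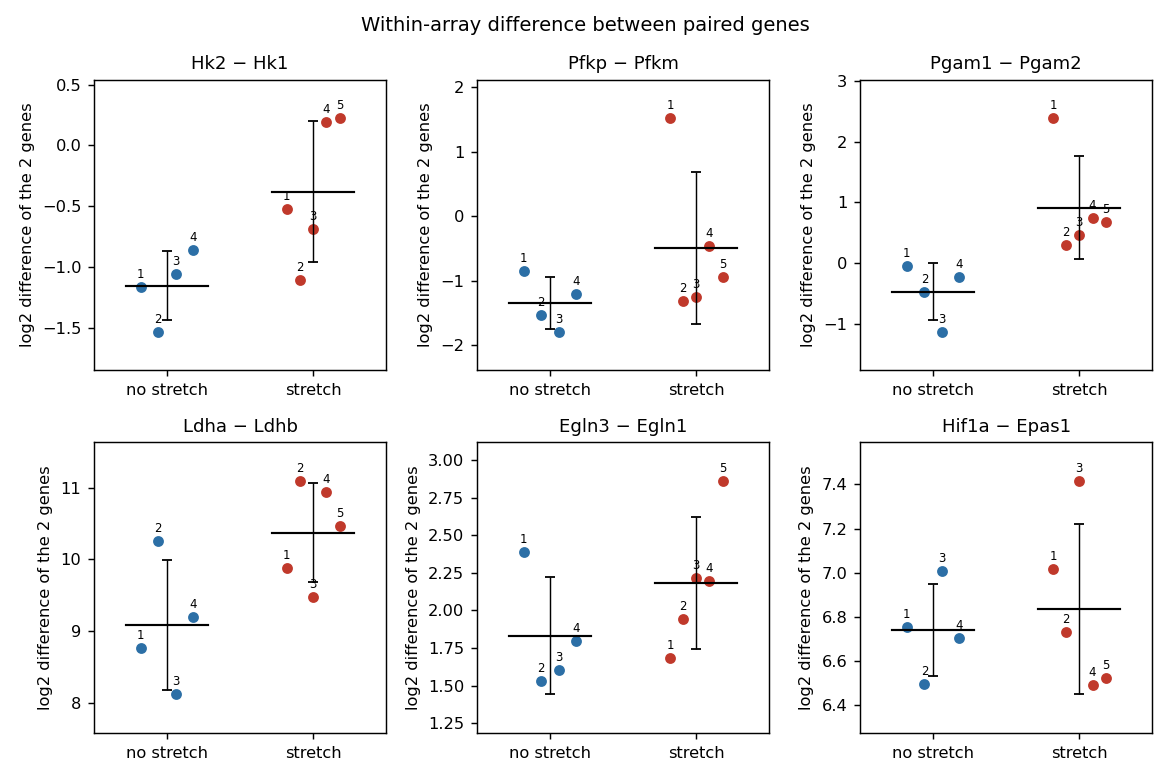
Log2 difference between the 2 genes of each pair on each array, no stretch in blue and stretch in red, with group means (lines), 1 SD (bars) and replicate numbers; the zero of each axis has no meaning, since levels of different probes are not comparable. The groups are separate only for Pgam1 minus Pgam2.

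Other genes of the same pathways were listed for comparison, and 64 of 73 were measured. Of these 42 had a positive difference (65.6%, median 0.13), and 14 were higher and 3 lower at an unadjusted limma p under 0.05, against 6.92% and 6.07% of all genes. Of these 64 genes 1 passed limma's test over all genes, against 0.246% of all genes. This was Hmox1, among the 27 further hypoxia-induced genes, the heme oxygenase that is also induced by oxidative stress. Hmox1 rose 4.27-fold, from 12.18, 12.30, 11.61 and 13.28 without stretch to 14.82, 14.79, 13.37, 14.71 and 14.50 with stretch, with no overlap (limma adjusted p = 0.045). The call of Hmox1 was lost when any single array other than stretch replicate 3 or no-stretch replicate 4 was left out, with log2 differences of 1.85 to 2.08 and limma adjusted p-values of 0.064 to 0.15. Hilpda, a lipid droplet protein induced by hypoxia, was at 10.32, 9.77, 8.79, 11.05 and 10.36 with stretch and 7.67, 8.16, 7.72 and 8.55 without, and Ddit4, an inhibitor of mTOR signalling, at 9.57, 10.02, 9.60, 10.99 and 10.49 with stretch and 9.16, 8.83, 8.47 and 8.71 without. Neither overlapped between groups, and neither passed (limma adjusted p = 0.054 and 0.082). With Hmox1, 3 of the 27 further hypoxia-induced genes were above all others on every stretched array, against 2.38% of all genes. Angptl4, a secreted inhibitor of lipoprotein lipase, differed by 1.03 (limma adjusted p = 0.13).

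Of 14 other glycolysis and glycogen genes 10 were positive, with a median of 0.14. Gpd1, which diverts a glycolytic intermediate to glycerol phosphate and is abundant in fat, was lower on every stretched array (8.25, 8.34, 8.94, 7.43 and 9.11, against 9.12, 9.85, 10.12 and 9.48 without stretch, limma adjusted p = 0.15), as were 2.15% of all genes. Stretch replicate 5 at 9.111 was only just below no-stretch replicate 1 at 9.117. Adipocyte markers were lower as well, with 7 of 8 negative and a median of -0.84; their mean was -1.29 to -0.33 with stretch and -0.32 to 0.28 without, and their part in the value of Gpd1 was not tested. Slc2a4, the insulin-responsive glucose carrier of fat and muscle, differed by -0.55, Pgm2, a phosphoglucomutase, by 0.84, and Eno2, the neuronal enolase, by 0.49.

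In the pentose phosphate branch, which supplies reducing power, 3 of 5 genes were positive. Pgd, one of its dehydrogenases, was higher on every stretched array (0.73, limma adjusted p = 0.26), as were 2.38% of all genes. The separation was slight, with stretch replicate 5 at 10.694 and no-stretch replicate 4 at 10.687, and stretch replicate 1 was highest at 12.05. Taldo1, transaldolase, differed by 0.54 (limma adjusted p = 0.23). Rpe and Rpia, which interconvert pentose phosphates, differed by 0.13 and -0.09. None of 11 genes of pyruvate dehydrogenase and the mitochondrial pyruvate carrier had an unadjusted p under 0.05 (median 0.11). The smallest p-values there were those of Mpc1, a subunit of the carrier, with a difference of 0.43, the kinases Pdk3 and Pdk2 with 0.42 and -0.37, and the phosphatase Pdp1 with 0.22.

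In the HIF pathway 3 of 7 further genes were positive, with a median of -0.13. Cited2, which competes with HIF for a coactivator, differed by -1.18 (limma adjusted p = 0.27), and Vhl, the ubiquitin ligase subunit that recognises hydroxylated HIF, by 0.53 (limma adjusted p = 0.35). Arnt and Arnt2, partners of the alpha subunits, differed by -0.14 and -0.20.

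Among markers of keratinocytes, the main cells of the epidermis, none passed the test over all genes. Activated keratinocyte markers were higher in 9 of 11 (median 0.92) and basal markers in 7 of 10 (median 0.40), while differentiated markers were lower in 8 of 9 (median -0.82). The mean of the activated markers was highest in stretch replicates 3 and 5 (1.89 and 1.42), the same arrays that were highest for Bnip3l. It was 0.95 in no-stretch replicate 2, within the stretched range of 0.43 to 1.89. The mean of the skeletal muscle markers was also highest in stretch replicates 3 and 5 (0.83 and 0.47), so this order is not particular to keratinocytes. Basal markers were lowest in no-stretch replicate 3 for 7 of 10, against 16.8% of all genes. That array was also lowest for Slc2a1 and Bnip3. Other lists shared this: it was lowest for 8 of 11 neutrophil, 5 of 9 monocyte and macrophage, 4 of 8 endothelial and 4 of 11 activated keratinocyte markers. It was lowest for 2 of 17 skeletal muscle markers and for 0 of the differentiated keratinocyte, fibroblast, adipocyte, sebaceous and erythroid markers. Endothelial markers were positive in 5 of 8 (median 0.24), sebaceous markers in 0 of 6 (median -1.21), and of 2 measured erythroid genes 1 was positive. The part of any of these in the differences of the set was not tested.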

How the data were processed

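Gene expression in mouse skin was measured on Affymetrix arrays with biotin-labelled cRNA, per the labels' protocols. The deposited values are on the log2 scale, and the submitters' processing notes name RMA and the Transcriptome Analysis Console, with no version. The build is not given in the sources used here. RMA can compress differences of dim genes, and whether the deposited values are affected was not tested. Detection calls and scan dates were not used here, and the number of arrays limits the precision (median standard error of a log2 difference 0.21).

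The table held 22206 features, 19572 with 1 gene symbol in the platform annotation and 2634 unnamed, which gave 19505 genes by the row of highest mean. Differences were fitted with limma 3.58.1 in R 4.3.3 (lmFit, eBayes, no covariate, all 9 arrays). Pairs of genes were tested by exact permutation over 126 splits. The fits were tested on simulated data. Named genes are all measured members, and up to 4 genes of smallest p from each other list; Eno1b lies outside the rule. Members, lists, pairs and tests were chosen with earlier results of these data known. Alternatives covered quantile normalization, median centring, averaging of rows, filters on dim genes, trend and robust settings of eBayes, weighted arrays, a block for the replicate number, and leaving out single arrays or, chosen after seeing the data, stretch replicate 1 with no-stretch replicate 3. Of 7 pairs planned, Eno1 minus Eno3 could not be formed, so the p-values of pairs were adjusted over 6.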

Additional observations from a re-analysis of the deposited data

Results flagged for a closer look

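A gap test for a single distant array within a group (Dixon's test at the 95% level) picked out 9 of 90 groups of values. Chance gives about 1 in 20 for each group. The groups share the same arrays and the pairs reuse genes, so they are not independent and no excess is read from the count. Stretch replicate 1 stood below its group for Pfkm (10.49, the others at 12.59 to 13.33), Pgam2 (7.57, the others at 9.48 to 9.61) and Gapdh (16.92, the others at 18.18 to 18.65), and above it for Pgam1 minus Pgam2 (2.38, the others at 0.30 to 0.74). No-stretch replicate 3 stood below its group for Slc2a1 (14.19, the others at 15.50 to 15.65), Hk3 (7.12, the others at 8.06 to 8.25), Epas1 (9.35, the others at 9.98 to 10.02) and Bnip3 (9.59, the others at 10.60 to 10.74). Ankrd37 was high in no-stretch replicate 4 (6.69, the others at 6.28 to 6.34).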

How the results depend on the processing

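No gene of the set was called under any alternative, including an adjusted p of 0.1; the smallest limma adjusted p was 0.066 with the replicate block and 0.083 to 0.37 when 1 array was left out. The count over all genes, 48, was 105 and 103 with a looser and a stricter filter on dim genes, 157 with array weights, 221 with the replicate block, 211 at an adjusted p of 0.1, 15 without both arrays of lowest weight, and 2 to 195 without single arrays. The shift of Pgam1 minus Pgam2 was 1.02 to 1.54 without single arrays, 0.80 without both arrays of lowest weight and 1.44 with the replicate block, and no longer passed; those designs have too few splits for a pair that alone is extreme to pass (smallest exact p before adjustment 0.029 for 4 arrays against 4 or against 3, 0.018 for 5 against 3 and 0.125 for 4 pairs). Hif1a minus Epas1 ranged from -0.051 to 0.18 without single arrays. Differences near 0 changed sign: Gapdh to 0.039 with median centring, 0.066 with array weights, 0.13 without both arrays and -0.18 to 0.25 without single ones; Ankrd37 to -0.0016 with array weights, -0.058 without both arrays and -0.015 to 0.18; Egln3 to -0.0067 with the block and -0.0067 to 0.43; Kdm3a to -0.030 with the block, -0.034 without both arrays and -0.13 to 0.14; Pfkp to -0.0055 without both arrays and -0.00032 to 0.29; Aldoc to 0.066 without both arrays and -0.26 to 0.019. Without single arrays Aldoa ranged from -0.37 to 0.013, P4ha1 from -0.014 to 0.37 and P4ha2 from -0.31 to 0.098. The causes were not tested. Deviations of same-numbered arrays had correlations of -0.062, -0.018, 0.064 and 0.34 for numbers 1 to 4, and only number 4 correlated best with its own number, so the replicate numbers were not taken to pair the samples. Quantile normalization, averaging of rows, and eBayes with trend and robust settings kept the direction of every gene of the set and called 48 to 70 genes in all; median centring called 45. Outside the set, Hmox1 passed in 10 and Dpt in 13 of 18 alternatives, with the same direction in all of them.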
